A study of Mus musculus with 14 samples.

Results

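The nuclear-encoded genes of the mitochondrial respiratory chain were followed in mouse intestinal tumor organoids in which Suv4-20h2, a histone methyltransferase of heterochromatin, was targeted by short hairpin RNAs. Members were the protein-coding genes whose symbols begin with Nduf, Sdh, Uqcr, Cox4 to Cox8 or Atp5 by a fixed symbol pattern and which were listed for both sets of libraries. They numbered 79 of the 17487 genes listed for both sets. Complex I had 37 of them, complex II 4, complex III 8, complex IV 13 and complex V 17. Ndufa4 was counted with complex I by its symbol, although its protein is known as a subunit of complex IV.

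Complexes I and II pass electrons from NADH and succinate to ubiquinone, complex III passes them on to cytochrome c, and complex IV hands them to oxygen. Complexes I, III and IV pump protons across the inner mitochondrial membrane, and complex V, the ATP synthase, uses the gradient to make ATP. The subunits come partly from mitochondrial DNA and mostly from nuclear genes, which are transcribed with the help of factors such as NRF1, GABP (an ETS factor), YY1 and the estrogen-related receptors. In the intestine, respiration is known to be high in differentiated cells and in stem cells, and Paneth cells are known for glycolysis.

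The samples were APT organoids, described in the labels as mouse small intestinal tumor organoids, and 14 libraries were sequenced from poly(A) RNA with stranded kits. In set 1, 3 libraries of hairpin 1 (Suv4-20h2 knockdown1, aimed at exon 4, clone #1) were set against 3 of control 1 (control1, titled shCtrl). In set 2, 4 libraries of hairpin 2 (Suv4-20h2 knockdown2, aimed at exon 9, clone #2) were set against 4 of control 2 (control2, shCtrl). Every group, both controls included, received doxycycline at 0.5 µg/ml for 4 days, which switched the hairpins on. Each hairpin is 1 clone and has its own set and controls, so hairpin, clone and set cannot be told apart. The labels do not state whether replicates are separate cultures, and p-values here therefore reflect only how much these libraries vary, which could be technical.

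The deposited values were counts, with 9272134 to 26284079 per library, and levels are given as CPM, counts scaled to library totals adjusted by TMM. Kmt5c, which encodes Suv4-20h2, had 53.6, 64.3 and 56.1 CPM in the hairpin 1 libraries, against 72.3, 75.8 and 67.3 CPM in the control 1 libraries. It had 114, 111, 99.3 and 106 CPM in the hairpin 2 libraries, against 129, 121, 116 and 128 CPM in the control 2 libraries. Every hairpin library lay below every control library of its set. By edgeR's quasi-likelihood test with Benjamini-Hochberg adjustment, Kmt5c had a log2 fold change of -0.31 with hairpin 1, at an adjusted p of 0.801. With hairpin 2 it had -0.20, at an adjusted p of 0.0977. With the replicate number as a block, it was -0.20 for hairpin 2 (adjusted p = 0.00741 by edgeR), so Kmt5c was called lower in that fit. The block pairs libraries by number, from the data and not from the labels, and 10.1% of all genes were called lower under it.

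Markers of the labelled tissue were present: 11 or 12 of 12 epithelial markers averaged at least 1 CPM in each group. Their levels still differed. Cdx1 had 7.89 to 13.0 CPM in hairpin 2 and 36.3 to 45.3 CPM in control 2. Hnf4a had 101 to 160 CPM in hairpin 2 and 277 to 314 CPM in control 2, whereas the groups overlapped for Cdx2 and Vil1. Of 8 fibroblast markers, Dcn, Lum and Thy1 were at 0 in every set 1 library and were not listed in set 2. Pdgfra had 13.7 to 15.3 CPM in hairpin 2 and 8.83 to 11.3 CPM in control 2. Pdgfrb had 1.01 to 3.37 CPM in hairpin 1 and 1.36 to 9.49 CPM in control 1. Hairpin 1 replicate 1 stood apart from the other set 1 libraries. The 5 Paneth cell markers summed to 74.0 CPM there, whereas replicates 2 and 3 of hairpin 1 reached 2107 and 1888 CPM and control 1 had 844 to 1824 CPM. The 5 goblet cell markers summed to 104 CPM in replicate 1, whereas replicates 2 and 3 had 1648 and 1590.5 CPM and control 1 had 766 to 1246 CPM. Of 5 endothelial markers, Cdh5 had 49.6 CPM in replicate 1, against at most 2.15 CPM in any other set 1 library. The others were not raised there. Vwf had 64.7 CPM, against 65.3 and 77.1 CPM in replicates 2 and 3 and 110 to 228 CPM in control 1. Pecam1, Kdr and Tek stayed below 1 CPM in set 1. Results of set 1 are therefore given with and without hairpin 1 replicate 1.

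Promoter sequence was available in RefSeq's tables (GRCm38.p6) for 63 of the 79 members, as windows from 250 bases before to 50 bases after an annotated start, and some members have more than 1 start. Exact strings known for 5 factors were searched on both strands, and none of the strings contains another. The NRF1 string GCATGCGC was found in 14.7% of the 68 windows of members and in 2.71% of all 32851 windows. The ETS string CCGGAAGT was found in 7.35% of member windows and 3.89% of all windows, and the YY1 string AAGATGGCG in 10.3% and 1.4%. The estrogen-related receptor string TCAAGGTCA was in 2.94% of member windows and 0.423% of all windows, and the SP1 string GGGCGG in 36.8% and 35.7%. The windows below are those of 4 members that hold such strings and of 2 members, Uqcr10 and Cox6b1, that fell with hairpin 2 and hold none of these strings. They are chr4:140961021-140961320 (plus strand) for Sdhb, chr10:80406772-80407071 (minus) for Uqcr11, chr13:114388045-114388344 (minus) for Ndufs4, chr9:50603800-50604099 (minus) for Sdhd, chr11:4704295-4704594 (minus) for Uqcr10 and chr7:30626065-30626364 (minus) for Cox6b1. Capitals mark the NRF1 string and reversed SP1 strings in Sdhb, the ETS and NRF1 strings in Uqcr11, the YY1 string in Ndufs4, and the SP1 and reversed estrogen-related receptor strings in Sdhd. A match is a string of letters and not a measured site. Uqcrfs1 and Sdha, which were called higher in some fits of set 2, hold none of the strings either. Whether the strings went with the changes was not tested.
Sdhb: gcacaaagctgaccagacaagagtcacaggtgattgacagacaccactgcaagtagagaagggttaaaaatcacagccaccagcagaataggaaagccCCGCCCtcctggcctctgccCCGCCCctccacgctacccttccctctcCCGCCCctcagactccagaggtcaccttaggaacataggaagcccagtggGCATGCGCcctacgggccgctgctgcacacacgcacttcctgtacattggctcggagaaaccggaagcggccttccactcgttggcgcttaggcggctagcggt
Uqcr11: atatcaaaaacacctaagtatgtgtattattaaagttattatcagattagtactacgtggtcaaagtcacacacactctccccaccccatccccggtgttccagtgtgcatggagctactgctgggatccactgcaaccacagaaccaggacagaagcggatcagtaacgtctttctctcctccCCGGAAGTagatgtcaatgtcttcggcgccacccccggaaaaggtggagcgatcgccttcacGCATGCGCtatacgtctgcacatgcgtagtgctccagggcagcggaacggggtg
Ndufs4: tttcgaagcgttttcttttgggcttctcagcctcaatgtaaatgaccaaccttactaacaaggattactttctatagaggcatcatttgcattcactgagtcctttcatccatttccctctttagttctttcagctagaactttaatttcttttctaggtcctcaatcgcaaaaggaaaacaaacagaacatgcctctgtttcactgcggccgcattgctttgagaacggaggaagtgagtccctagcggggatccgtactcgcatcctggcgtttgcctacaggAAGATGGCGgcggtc
Sdhd: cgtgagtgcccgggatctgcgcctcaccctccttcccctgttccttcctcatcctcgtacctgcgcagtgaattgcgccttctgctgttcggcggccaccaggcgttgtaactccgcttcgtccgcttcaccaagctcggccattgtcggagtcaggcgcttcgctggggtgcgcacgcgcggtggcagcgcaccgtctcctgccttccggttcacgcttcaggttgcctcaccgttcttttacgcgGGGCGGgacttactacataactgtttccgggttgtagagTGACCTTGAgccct
Uqcr10: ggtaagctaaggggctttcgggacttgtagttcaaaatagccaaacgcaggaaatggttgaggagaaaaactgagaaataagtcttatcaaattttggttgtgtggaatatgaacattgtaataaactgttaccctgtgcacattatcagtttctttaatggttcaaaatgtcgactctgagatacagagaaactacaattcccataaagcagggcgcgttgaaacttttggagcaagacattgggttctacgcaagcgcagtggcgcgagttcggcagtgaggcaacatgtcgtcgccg
Cox6b1: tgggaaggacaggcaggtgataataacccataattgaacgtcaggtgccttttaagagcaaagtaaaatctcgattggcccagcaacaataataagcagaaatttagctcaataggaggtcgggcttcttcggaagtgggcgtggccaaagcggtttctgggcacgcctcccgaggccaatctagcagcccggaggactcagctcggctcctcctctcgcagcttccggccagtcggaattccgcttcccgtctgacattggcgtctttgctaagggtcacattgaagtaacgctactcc

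Levels differed widely among the members. Per kilobase of exonic length, Cox8a and Cox6a1, small subunits of complex IV, and Atp5b and Atp5a1, which form the catalytic head of the ATP synthase, were the 4 highest members in every group. Exonic length counts the exons of every annotated transcript. For Atp5g3 it was 2181 bases, against 723 bases for the transcript with the longest coding sequence. Ranks and medians here hold for exonic length only. Cox8a had 934 CPM per kilobase in hairpin 1 and 950 in control 1, and 423 in hairpin 2 and 434 in control 2. Atp5b had 557 CPM per kilobase in hairpin 1 and 538 in control 1, and 398 in hairpin 2 and 418 in control 2. The median member of complex IV stood at 156 CPM per kilobase in hairpin 1 and 139 in control 1, and that of complex I at 61.0 in hairpin 1 and 66.0 in control 1. In set 2 these medians were 59.2 in hairpin 2 and 72.3 in control 2 for complex IV, and 41.5 in hairpin 2 and 42.8 in control 2 for complex I.

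Isoforms known from muscle were low. Cox7a1, the muscle form of a complex IV subunit, had 0.865 to 1.74 CPM in hairpin 2 and 1.08 to 1.77 CPM in control 2, whereas its widely expressed partner Cox7a2 had 86.0 to 91.7 CPM in hairpin 2 and 93.2 to 106 CPM in control 2. Cox6a2, the muscle partner of Cox6a1, and Ndufa4l2, a relative of Ndufa4, stayed below 1 CPM in all 14 libraries and did not pass the filter on low counts, which left 77 members tested in each set. A further 6 genes that match the symbol pattern, Cox4i2, Cox7b2, Cox6b2, Cox8b, Cox8c and a second Atp5o entry, were listed for set 1 only, at no more than 0.644 CPM.

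Some member counts are uncertain because near-identical processed pseudogenes can take part of their reads. At least 1 such copy, matching over 200 bases or more at 95% identity or more, was found for 19 tested members, with 8 copies for Atp5l, 4 for Atp5h, 3 for Uqcrb, 2 each for Atp5g2, Cox7b and Cox6c, and 1 for each of the rest. Between the controls of the sets, these 19 members had a median log2 ratio of control 2 over control 1 of -1.64, against -0.73 for the 58 without a copy and 0.16 for all 12384 genes tested in both sets. The ratio was below 0 for 69 of 77 members, 50 of them without a copy. The lowest ratio was that of Atp5g2, which encodes the membrane ring subunit of the ATP synthase, at -6.07, followed by Atp5g1, which encodes the same subunit, at -5.26. The sets were scaled separately, so these ratios have no test, and levels are compared below within a set only. In bulk libraries, fewer cells of a type and less RNA per cell cannot be told apart.

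In set 1, the members together took 1.15%, 2.03% and 2.37% of all counts in the hairpin 1 libraries, against 1.80%, 1.78% and 1.91% in the control 1 libraries. By this share, hairpin 1 replicate 1 was the lowest of the 6 libraries and the other hairpin 1 libraries the highest. On the TMM scale only replicate 3 stood above the controls, with a summed CPM of 24347. Replicate 2 had 19282 CPM, below the 20255 CPM of control 1 replicate 3. Replicate 1 lay below every control 1 library for 71 of 77 members, where 38.4% of all tested genes did so. Replicate 3 lay above every control 1 library for 66 members, where 27.3% of all genes did so, and replicate 2 for 35 members, where 26.8% did so. The hairpin 1 libraries thus stood on both sides of their controls.

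**Figure D1:**
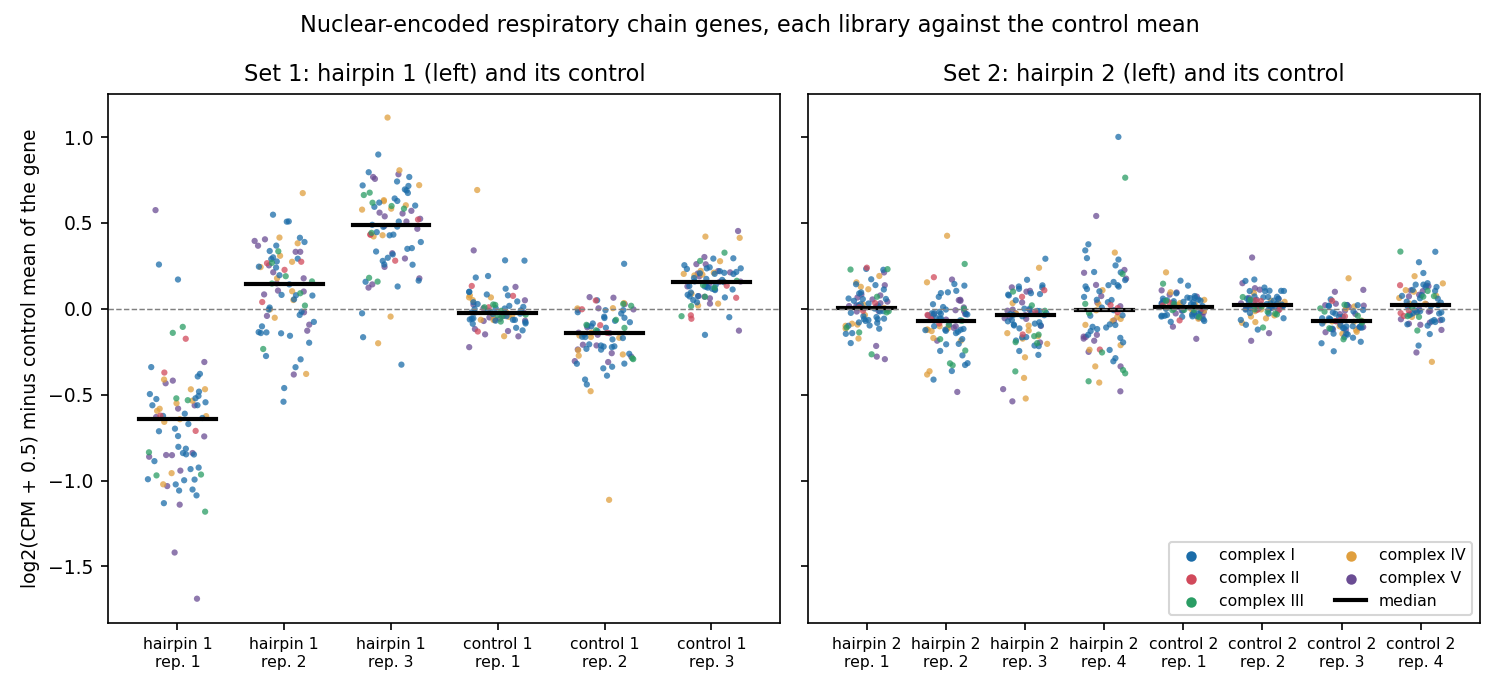
Difference of each member (point, coloured by complex) in each library (x axis) from the mean of the controls of its set, on the scale of log2 of CPM plus 0.5 (y axis), with the median as a bar. The median lies at -0.64 in hairpin 1 replicate 1, at 0.14 and 0.49 in replicates 2 and 3, between -0.14 and 0.16 in control 1, and between -0.07 and 0.02 in all set 2 libraries.

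With all 3 hairpin 1 libraries, 0 of 77 members passed an adjusted p of 0.05 by edgeR's quasi-likelihood test, as did 0.0% of the 13540 genes tested. The spread between these libraries was wide enough that log2 changes of 0.5 and 1 planted in simulated counts were not called either. The lack of calls therefore does not show a lack of change. DESeq2 also called 0 members, and 1 member, Ndufs1, had an unadjusted p under 0.05, as did 733 of all genes. The median log2 fold change was 0.05 over members and 0.03 over all genes. By complex it was -0.01 for complex I, 0.08 for II, 0.08 for III, 0.12 for IV and 0.04 for V. Groups did not overlap for Ndufb3 and Atp5s, both higher in hairpin 1 (2 of 77, where 6.5% of all genes did so), and for Ndufv1, lower in hairpin 1 (1 of 77, where 6.34% did so).

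Without hairpin 1 replicate 1, 68 of 77 members had a log2 fold change above 0, as did 6669 of 13883 genes, and the median was 0.30, against -0.02 over all genes. The median was 0.25 for complex I, 0.31 for II, 0.37 for III, 0.41 for IV and 0.36 for V. Both remaining hairpin 1 libraries lay above all control 1 libraries for 35 of 77 members, or 45.5%, where 17.5% of all genes did so. These were 15 members of complex I, 3 of II, 3 of III, 6 of IV and 8 of V. In the other direction stood 1 member, Ndufv1, where 17.6% of all genes did so. The Paneth and goblet marker sums given above were, like most member levels, lowest in replicate 1, and they were above every control 1 library in replicates 2 and 3. Among single Paneth markers only Lyz1 was above in both, with 1314 and 1037 CPM, against 352 to 532 CPM in control 1. Among goblet markers Muc2, Tff3 and Agr2 were, and Clca1 and Spdef were not. The part of these sums in the result was not tested.

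Whether these differences passed a test depended on the estimate of the spread. By edgeR on set 1 without replicate 1, 0 of 77 members were called, where 0.0072% of 13883 genes were, and 21 members had an unadjusted p under 0.05, as did 2187 of all genes. DESeq2 on the same libraries called 2 members higher, Cox7c and Ndufc2, and 0 lower, where 1.19% and 2.42% of its genes were called higher and lower. An edgeR model of all 4 groups without that library, which takes its spread from both sets, called 24 members higher and 0 lower, where 6.55% of 15313 genes were called higher and 5.94% lower. The 24 were 9 of complex I, 2 of II, 3 of III, 6 of IV and 4 of V.

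**Figure D2:**
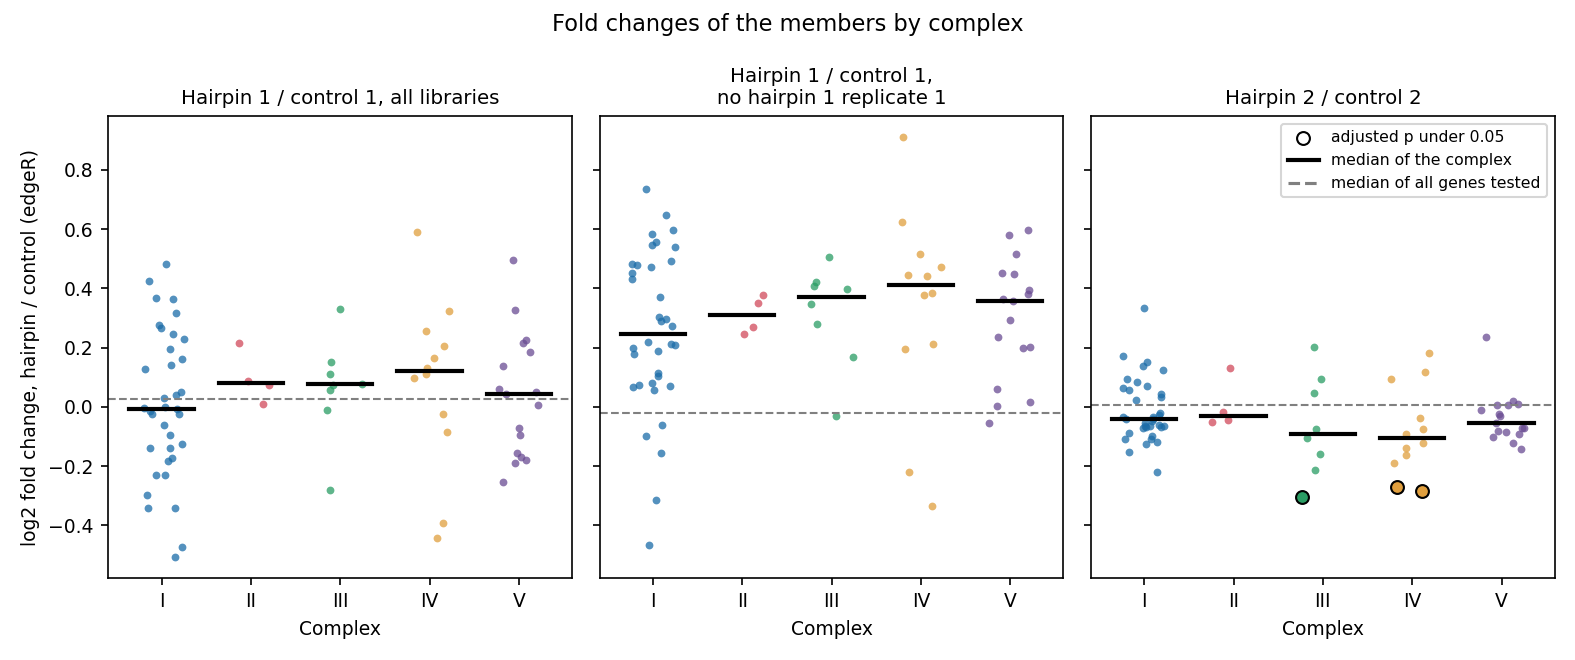
Log2 fold changes (y axis) of the members by complex (x axis; points are members, bars medians, the dashed line the median of all genes), for hairpin 1 over control 1 with all libraries and without hairpin 1 replicate 1, and for hairpin 2 over control 2. Complex medians lie between -0.01 and 0.12 with all set 1 libraries, between 0.25 and 0.41 without replicate 1, and between -0.11 and -0.03 in set 2.

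In the catalytic core of complex I, which takes electrons from NADH and passes them to ubiquinone, subunits differed in their values in set 1. Ndufs1, the largest iron-sulfur subunit, had 96.5, 115 and 129 CPM in hairpin 1, against 74.7, 96.8 and 72.5 CPM in control 1. Only replicate 1 of hairpin 1 overlapped the controls. Its log2 fold change was 0.48 ± 0.20 (SE) with all libraries, with an adjusted p of 0.801 by edgeR, and 0.58 ± 0.19 without replicate 1. Ndufv1, which binds NADH and the flavin, had 209, 273 and 336 CPM in hairpin 1, against 355, 344 and 437 CPM in control 1. Here every hairpin 1 library lay below every control 1 library, with a log2 fold change of -0.47 ± 0.23, and -0.32 ± 0.20 without replicate 1. Ndufs3, Ndufs7 and Ndufs8, iron-sulfur or scaffold subunits near the ubiquinone site, had values of -0.30, -0.23 and -0.34 with all libraries. Without replicate 1 these were -0.06, 0.07 and -0.10. Ndufv2, an iron-sulfur subunit beside Ndufv1, stood at 0.05 with all libraries and at 0.37 without replicate 1.

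Accessory subunits of complex I surround the core. Ndufv3, an accessory subunit of the NADH-binding end, had 86.3, 87.5 and 102 CPM in hairpin 1, against 155, 93.9 and 143 CPM in control 1. It had the lowest log2 fold change of all members in set 1, -0.51 ± 0.23, and -0.47 ± 0.23 without replicate 1, although the groups overlapped. Ndufc2, an accessory subunit of the membrane arm, had 58.3, 123 and 157 CPM in hairpin 1, against 80.3, 82.7 and 88.8 CPM in control 1. Replicate 1 lay below and the others above every control. Without replicate 1 its log2 fold change was 0.73 ± 0.18, with an adjusted p of 0.122 by edgeR and 0.0238 by DESeq2. Ndufa4 had 181, 341 and 436 CPM in hairpin 1, against 243, 248 and 279 CPM in control 1, and 0.60 ± 0.19 without replicate 1.

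In complex II, which also works in the tricarboxylic acid cycle, all 4 members were above 0 with and without replicate 1. Sdhc, a membrane anchor, had 136, 180 and 221 CPM in hairpin 1, against 169, 144 and 150 CPM in control 1. Only replicates 2 and 3 stood above the controls, and the log2 fold change was 0.22 ± 0.22, and 0.38 ± 0.18 without replicate 1. Sdhb, the iron-sulfur subunit whose promoter is shown above, had 112, 177 and 233 CPM in hairpin 1, against 181, 156 and 180 CPM in control 1.

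In complex III, Uqcrfs1, the Rieske iron-sulfur protein, had 188, 255 and 320 CPM in hairpin 1, against 196, 206 and 204 CPM in control 1. Its log2 fold change was 0.33 ± 0.23 with all libraries and 0.51 ± 0.18 without replicate 1. Replicate 1 lay just below the controls and the other hairpin 1 libraries above them. Uqcrc1, a core protein of the matrix side, had 264, 438 and 575 CPM in hairpin 1, against 502, 472 and 577 CPM in control 1, and the lowest value of the complex at -0.28 ± 0.30. Without replicate 1 it was at -0.03 ± 0.21.

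In complex IV, Cox7c, a small membrane subunit, had 108, 229 and 311 CPM in hairpin 1, against 137, 147 and 147 CPM in control 1. It had the highest log2 fold change of all members, 0.59 ± 0.36, and 0.91 ± 0.19 without replicate 1, with an adjusted p of 0.0939 by edgeR, 0.00255 by DESeq2 and 0.00171 in the edgeR model of all 4 groups. Replicate 1 was the lowest of the 6 libraries and the other hairpin 1 libraries were the highest. Cox5a, a matrix-side subunit, followed the same pattern, with 88.0, 176 and 231 CPM in hairpin 1, against 130, 132 and 134 CPM in control 1. Its log2 fold change without replicate 1 was 0.62 ± 0.18 (adjusted p = 0.166 by edgeR in set 1 alone and 0.00413 in the edgeR model of all 4 groups). Cox7a2l, known for its role in joining complexes III and IV into supercomplexes, had 135, 143 and 162 CPM in hairpin 1, against 195, 134 and 249 CPM in control 1, and stayed below 0 with (-0.39 ± 0.25) and without replicate 1 (-0.34 ± 0.25).

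In complex V, the head subunits Atp5b and Atp5a1 had log2 fold changes of 0.05 and -0.15 with all libraries and 0.20 and 0.02 without replicate 1. Atp5b, the catalytic beta subunit, had 1839, 2445 and 2794 CPM in hairpin 1, against 2181, 2270.4 and 2393 CPM in control 1, and replicate 1 lay below and the others above every control. Atp5g3, 1 of 3 genes for the membrane ring subunit, had 314, 778 and 1038 CPM in hairpin 1, against 517, 631 and 673 CPM in control 1, with 0.58 ± 0.22 without replicate 1. Atp5s, known as coupling factor B, had 14.1, 12.4 and 13.5 CPM in hairpin 1, against 11.9, 7.97 and 8.49 CPM in control 1. It was the 1 member of the complex whose 3 hairpin 1 libraries all stood above the controls, at 0.49 ± 0.29, and its value without replicate 1 was 0.45 ± 0.29. Atp5d, the delta subunit of the stalk, was lowest at -0.25 ± 0.30, and at -0.06 ± 0.25 without replicate 1.

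Fold changes in set 1 without replicate 1 differed with coding length. Members with a coding length up to 300 bases had a median log2 fold change of 0.43 (20 members), those of 300 to 450 bases 0.34 (24), those of 450 to 600 bases 0.29 (13) and those of 600 to 900 bases 0.25 (9). Other genes of the same lengths had medians of 0.27, 0.18, 0.09 and 0.05. The 7 members of 900 to 1500 bases had a median of -0.03, against -0.01 for the 3366 other genes, and the 4 members of 1500 to 3000 bases had 0.23, against -0.06, so that the values of members did not decline throughout. By GC content of the transcript, members stood at 0.42, 0.46, 0.35, 0.28 and 0.13 in bins that end at 44, 48, 52, 56 and 60%, and other genes at 0.21, 0.11, -0.01, -0.13 and -0.24. Values of other genes thus also differed with coding length and GC content, whose part in the result was not tested.

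**Figure D3:**
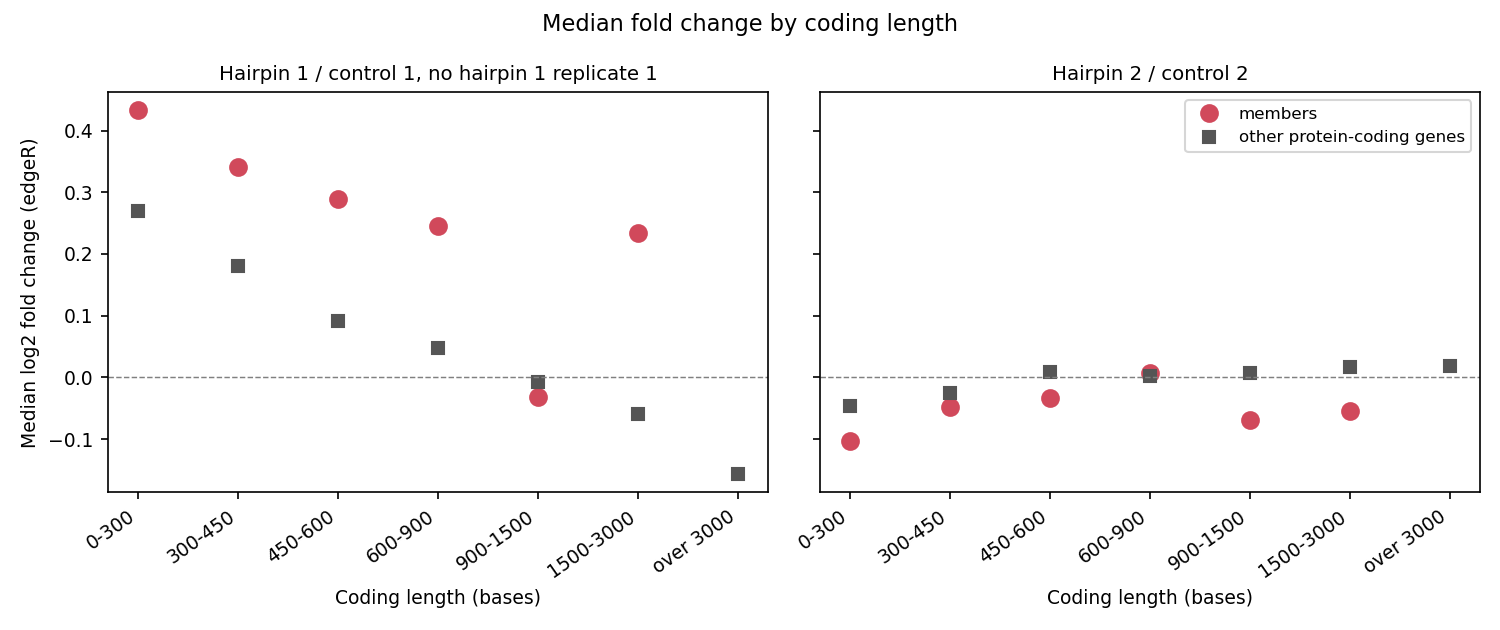
Median log2 fold change (y axis) by coding length in bases (x axis, bins), for members and for other protein-coding genes, in set 1 without hairpin 1 replicate 1 and in set 2. In set 1 members lie at 0.43 and other genes at 0.27 in the shortest bin, and in set 2 at -0.10 and -0.05.

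In set 2 the members took 1.08%, 1.04%, 1.03% and 0.998% of all counts in the hairpin 2 libraries, against 1.08%, 1.10%, 1.03% and 1.07% in the control 2 libraries, and the groups overlapped. The median log2 fold change was -0.05 over members and 0.00 over all genes, with 25 of 77 members above 0. It was -0.04 for complex I, -0.03 for II, -0.09 for III, -0.11 for IV and -0.06 for V. By edgeR's quasi-likelihood test, 3 of 77 members fell (4.01% of 14126 genes fell) and 0 rose (2.04% rose), with 8 members at an unadjusted p under 0.05, and DESeq2 called 3 lower and 1 higher, where 4.82% and 3.29% of its genes were. The share of members called lower was 3.9%, close to that of all genes. Epithelial markers summed to 4922 to 5624 CPM in hairpin 2 and 6419.8 to 6529 CPM in control 2, and the 4 listed enterocyte markers to 28.9 to 48.5 CPM in hairpin 2 and 70.5 to 85.9 CPM in control 2. Neither pair of ranges overlapped. The enterocyte sum was nearly all Mgam, at 28.4 to 48.5 CPM in hairpin 2 and 70.1 to 85.4 CPM in control 2. Alpi, Apoa1 and Sis stayed below 1 CPM in set 2. The part of these markers in the result was not tested.

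The 3 members that fell were small supernumerary subunits of complexes III and IV. In set 2 the 20 members with a coding length up to 300 bases had a median of -0.10, with 3 above 0. The 206 other genes of that length had -0.05. Cox7b (240 bases) and Cox6b1 (258 bases) are among these short members, and the part of coding length was not tested. Uqcr10 (ENSMUSG00000059534, chr11:4701973-4704342, minus strand, GRCm38), a small membrane subunit of complex III, had 88.0, 84.2, 82.1 and 88.7 CPM in hairpin 2, against 108, 107, 97.8 and 111 CPM in control 2. No hairpin 2 library reached the lowest control, and the log2 fold change was -0.30 ± 0.06 (adjusted p = 0.0127, edgeR). Cox7b (ENSMUSG00000031231, chrX:106015700-106022450, plus strand), a membrane subunit of complex IV, had 77.7, 68.0, 66.2 and 75.6 CPM in hairpin 2, against 88.5, 86.8, 83.2 and 92.4 CPM in control 2, with -0.29 ± 0.07 (adjusted p = 0.035, edgeR). Cox6b1 (ENSMUSG00000036751, chr7:30616861-30626151, minus strand), a complex IV subunit that faces the intermembrane space, had 171, 140, 151 and 145 CPM in hairpin 2, against 180, 187, 174 and 191 CPM in control 2. The groups were apart here too, and the log2 fold change was -0.27 ± 0.07 (adjusted p = 0.0474, edgeR). Leaving out hairpin 2 replicate 2 or control 2 replicate 2 left 0 members called. Leaving out hairpin 2 replicate 3 or control 2 replicate 1, 3 or 4 left 1. An edgeR model of all 4 groups called 0 members in set 2.

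**Figure D4:**
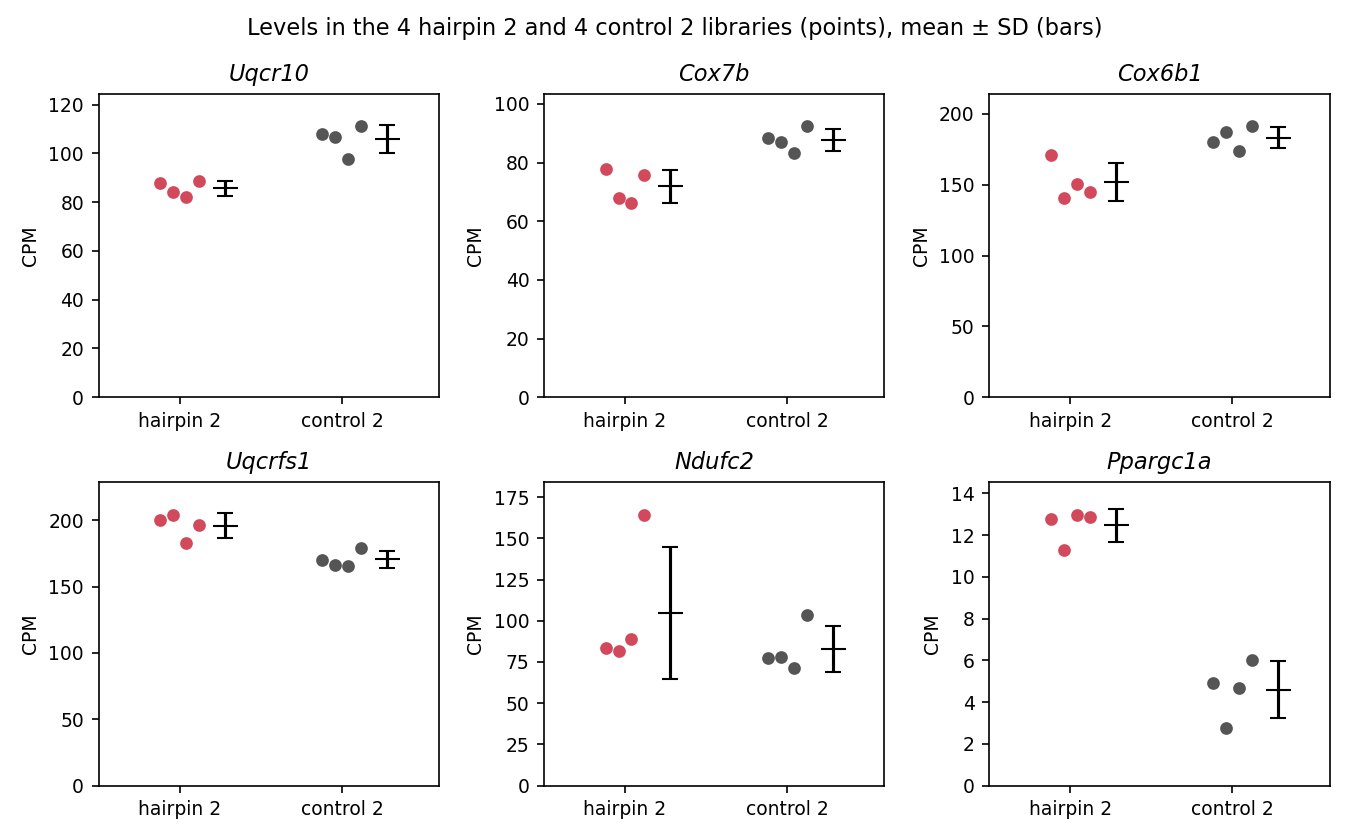
CPM (y axis) of 5 members and of Ppargc1a in set 2, hairpin 2 left and control 2 right, with 1 point per library and the mean ± SD beside them. For Uqcr10, Cox7b and Cox6b1 all 4 hairpin 2 libraries lie below all 4 control 2 libraries, and for Uqcrfs1 and Ppargc1a above them.

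Uqcrfs1 went the other way within complex III. It had 200, 204, 183 and 196 CPM in hairpin 2, against 170, 166, 166 and 179 CPM in control 2, and all hairpin 2 libraries stood above all controls. The log2 fold change was 0.20 ± 0.05 with an adjusted p of 0.0603 by edgeR. It passed by DESeq2 (adjusted p = 0.00978), and by edgeR without hairpin 2 replicate 4 (0.0485) or without both replicate 4 libraries (0.00397). Groups did not overlap for Uqcrfs1 and Ndufs3, a scaffold subunit of complex I, among the higher members (2 of 77, where 6.88% of all genes did so). In the lower direction they did not overlap for Uqcr10, Cox7b, Cox6b1, Cox7a2 and Cox6c (5 of 77, where 8.42% did so), of which 4 belong to complex IV. Cox6c was chosen after its values were seen, and had 74.9, 73.4, 72.4 and 59.2 CPM in hairpin 2, against 81.3, 85.2, 76.1 and 77.3 CPM in control 2.

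With the replicate number as a block, edgeR called more members in set 2. There 8 of 77 fell, where 10.1% of all genes fell, and 3 rose, where 10.2% rose. In complex III, Uqcr10 (adjusted p = 0.000485, edgeR), the core protein Uqcrc2 (0.0424) and the hinge protein Uqcrh (0.0418) fell and Uqcrfs1 (0.00714) rose. In complex IV, Cox7b (0.00135), Cox6b1 (0.00534), Cox6c (0.0275) and Cox7a2 (0.0422) fell. The accessory subunit Ndufa3 of complex I fell as well (adjusted p = 0.0315, edgeR) at -0.23 ± 0.07. Ndufc2 rose by 0.29 ± 0.08 (adjusted p = 0.0278, edgeR) and Atp5s by 0.23 ± 0.07 (0.0408). Uqcrh and Cox6c are named because they were called under the block.

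Replicate 4 weighed on some of these. Ndufc2 had 83.7, 81.6, 88.8 and 164 CPM in hairpin 2, against 77.7, 78.3, 71.6 and 103 CPM in control 2, so that replicate 4 was far above the others in hairpin 2 and the highest in control 2. Without both replicate 4 libraries its log2 fold change was 0.15 (adjusted p = 0.0639 by edgeR, and 0.0305 with the block). Atp5s had 19.9, 21.2, 20.1 and 27.5 CPM in hairpin 2, against 17.4, 18.7, 18.3 and 20.6 CPM in control 2, and without both replicate 4 libraries 0.17 (adjusted p = 0.123 by edgeR, and 0.0884 with the block). Without both replicate 4 libraries, edgeR called 5 members lower and 2 higher, where 9.02% and 7.93% of all genes were, and with the block as well 9 lower and 4 higher, where 12.4% and 12.6% were. The lower members without the block were Uqcr10, Cox7b, Cox6b1, Ndufa3 and Ndufa12, and the higher ones were Uqcrfs1 and Sdha, the flavoprotein of complex II. Sdha had 326, 314, 298 and 272 CPM in hairpin 2, against 276, 275, 285 and 268 CPM in control 2. The groups of Sdha overlapped because of replicate 4 of hairpin 2.

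By chromosome, members moved with their neighbours on chromosome 13 in set 2. All 6 members there, Cox7c, Ndufs4, Ndufs6, Sdha, Uqcrb and Uqcrfs1, were above 0, with a median log2 fold change of 0.14, against 0.18 for the 507 other tested genes of that chromosome. Other genes stood at 0.13 on chromosome 12, which holds the members Atp5mpl and Atp5s, and at 0.11 on chromosome 5. The 3 members on chromosome 5 had a median of -0.03. On every other chromosome the median of other genes lay between -0.03 and 0.04. The 5 members on chromosome 9, 4 on chromosome 15, 4 on chromosome 19 and 3 on chromosome X were all below 0. In set 1 without replicate 1, chromosome 13 stood at 0.33 for members and 0.12 for the 532 other genes. Chromosome position moved with the values of Uqcrfs1 and Sdha, and its part in the result was not tested.

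**Figure D5:**
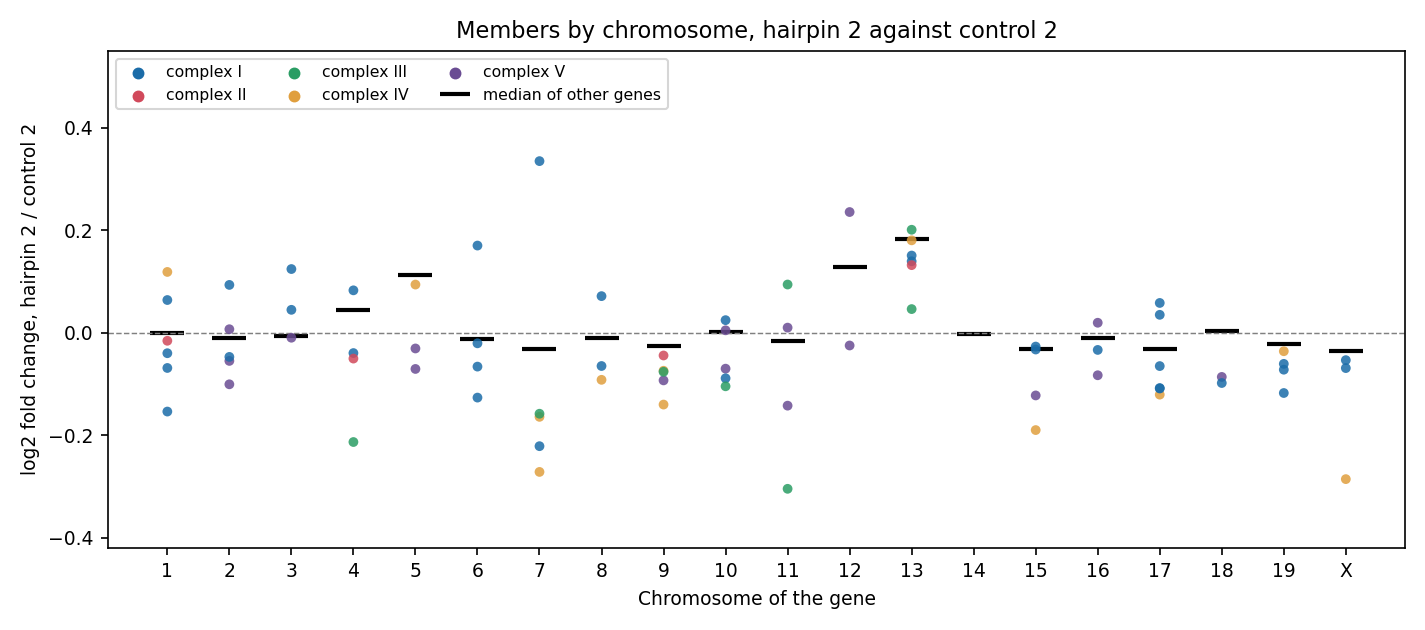
Log2 fold change (y axis) of each member (point, coloured by complex) for hairpin 2 over control 2, by chromosome (x axis), with the median of the other genes as a bar. On chromosome 13 all 6 members lie above 0, beside a median of 0.18 for the 507 other genes.

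The difference between the hairpin effects (hairpin 2 minus hairpin 1) was tested in 1 edgeR model of the 4 groups. This model takes 1 spread from both sets, although set 1 libraries varied more, and hairpin, clone and set cannot be told apart in it. With all libraries 0 of 77 members differed, where 0.412% of 15043 genes did. DESeq2 also called 0, and 3 members had an unadjusted p under 0.05. Without hairpin 1 replicate 1, 15 members had the lower effect with hairpin 2 and 0 the higher, where 3.98% and 2.28% of 15313 genes did. They were 5 members of complex I, 1 of III, 6 of IV and 3 of V. Cox7b had the smallest adjusted p (0.011, edgeR) with a difference of -0.77 ± 0.16, followed by Cox5a at -0.74 ± 0.15 (0.0112) and Ndufa4 at -0.77 ± 0.16 (0.0139). Ndufs1 stood at -0.67 ± 0.16 and Ndufa3 at -0.75 ± 0.18 (adjusted p = 0.023 for both, edgeR), and Cox6c at -0.71 ± 0.17 (0.0236).

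The respiratory chain mRNAs made from mitochondrial DNA were also followed, of which 7 of 13 were tested. In set 1 their median log2 fold change was 1.22 with all libraries (0 called by edgeR, 0 at an unadjusted p under 0.05) and 1.67 without replicate 1. By edgeR 0 of 7 were called without replicate 1, with 7 at an unadjusted p under 0.05. DESeq2 and the edgeR model of all 4 groups called 7 higher. Of all genes in these fits, 1.19% and 6.55% were called higher. mt-Nd2, a core subunit of complex I, had 215, 1420.3 and 1588 CPM in hairpin 1, against 438, 292 and 651 CPM in control 1. For this mRNA replicate 1 was again the lowest library and the others the highest. Over the 7, the median log2 difference from the control mean was -0.55 in replicate 1, and lower, at -0.80, in control 1 replicate 2. In set 2 mt-Nd2 had 929, 651, 642 and 949.9 CPM in hairpin 2, against 1113, 1013, 1037 and 1032 CPM in control 2, and every hairpin 2 library was below every control. The median log2 fold change over the 7 was -0.31, with 0 called by edgeR and 2 at an unadjusted p under 0.05. As a list the 7 did not separate the groups. Their median difference from the control mean was 0.09 in hairpin 2 replicate 4, against -0.03, -0.15, -0.13 and 0.31 in control 2. With the replicate block 6 of 7 fell, where 10.1% of all genes fell. Among them was mt-Nd2 at -0.43 (adjusted p = 0.00362, edgeR).

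Regulators of nuclear-encoded respiratory genes gave 1 call of 17 tested in set 2, where 2.04% of all genes rose and 4.01% fell. Ppargc1a, the PGC-1 alpha coactivator of mitochondrial gene expression, had 12.8, 11.3, 13.0 and 12.9 CPM in hairpin 2, against 4.91, 2.76, 4.70 and 6.02 CPM in control 2. It rose by 1.43 ± 0.19 on the log2 scale (adjusted p = 0.00211, edgeR), with no overlap between the groups. It lies on chromosome 5, whose other genes had the median of 0.11 given above. In set 1 Ppargc1a had 21.9, 25.1 and 16.1 CPM in hairpin 1, against 15.5, 17.4 and 18.9 CPM in control 1, with 0.28 and an adjusted p of 0.842 by edgeR. Its rise in set 2 thus stood beside a member median of -0.05. Under the block 10.2% of all genes rose and 10.1% fell. In that fit the GABP subunits Gabpa (0.13) and Gabpb1 (0.18) and the corepressor Nrip1 (0.19) also rose in set 2. Pprc1, a relative of Ppargc1a, fell to a log2 fold change of -0.21. The adjusted p of these was 0.0471, 0.0386, 0.0119 and 0.00525 in this order, by edgeR. Nrf1, the factor of the NRF1 string above, had -0.02 in set 2 and -0.27 in set 1, or -0.35 without replicate 1, and passed no test. Yy1 had 0.12 in set 2, and an adjusted p of 0.201 by edgeR, 0.062 with the block and 0.0476 by DESeq2. With the block and without both replicate 4 libraries it rose (adjusted p = 0.019, edgeR), where 12.6% of all genes rose. In set 2 the median of other genes was 0.13 on chromosome 12 and 0.18 on chromosome 13. The part of chromosome position in the values of these regulators was not tested. Esrra, Tfam, Tfb1m, Tfb2m, Polrmt, Gabpb2, Hcfc1, Ppargc1b, Ppara and Ppard, which are factors or receptors of these genes or of mitochondrial DNA, were not called in set 2 by DESeq2 or by edgeR with or without the block, with values from -0.16 to 0.15. In set 1, 0 of 17 regulators were called by edgeR with or without replicate 1, with 1 and 3 at an unadjusted p under 0.05. Without that library DESeq2 called 1 higher and 1 lower, and the edgeR model of all 4 groups 2 higher and 1 lower. Of all genes, DESeq2 called 1.19% higher and 2.42% lower, and that model 6.55% and 5.94%. Pprc1 had the lowest value there, -0.95 without replicate 1 (adjusted p = 0.0724, edgeR). Esrrg, an estrogen-related receptor, had 0.0439, 7.47 and 6.996 CPM in hairpin 1, against 1.86, 2.01 and 2.23 CPM in control 1.

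Other mitochondrial lists are given beside the members for set 2, with no test between lists. Over all 14126 genes, 2.04% rose and 4.01% fell by edgeR, and 10.2% and 10.1% under the block. The part of chromosome position in the values of these lists was not tested. Of 42 tested assembly factors 0 were called by edgeR (median -0.02; 7 at an unadjusted p under 0.05), and under the block 2 rose and 3 fell. Nubpl, an iron-sulfur carrier for complex I, was among them and rose by 0.36 (adjusted p = 0.0052, edgeR). Of 17 tricarboxylic acid cycle enzymes 0 were called by edgeR (median -0.05, 2 at an unadjusted p under 0.05). Under the block Dld, a subunit of the dehydrogenase complexes, rose by 0.17 (adjusted p = 0.0132, edgeR), and Idh3b, an isocitrate dehydrogenase subunit, fell by 0.19 (0.0101). Of 18 carriers and partners of cytochrome c and quinone, Dhodh, which makes a pyrimidine precursor, and Sqor, which oxidises sulfide, fell, at -0.30 ± 0.07 and -0.47 ± 0.12 (adjusted p = 0.0349 and 0.0451, edgeR). The median of these 18 was -0.01, with 9 above 0. Of 77 mitochondrial ribosomal proteins 0 were called by edgeR (median -0.04, 7 at an unadjusted p under 0.05), and under the block 2 rose and 4 fell. Cytosolic ribosomal proteins, a comparison list from outside the mitochondrion, had a median of -0.15, with 12 of 80 above 0 and 1 called lower, and 23 lower under the block. In set 1 without replicate 1 the medians were 0.20 for assembly factors, 0.20 for the cycle enzymes, 0.18 for the carriers, 0.22 for mitochondrial ribosomal proteins and 0.00 for cytosolic ones, beside 0.30 for the members and -0.02 for all genes. By edgeR 0 genes of these lists were called there, with 3, 2, 3, 18 and 2 at an unadjusted p under 0.05. DESeq2 called 0, 0, 1, 3 and 1 of them, all higher, where 1.19% of its genes were called higher.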

How the data were processed

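Poly(A) RNA from 14 organoid libraries was sequenced in 2 sets. Each library has its own deposited table of raw counts, whole numbers that the authors left unnormalized as far as the values show. Per the submitters' processing notes, the tools were featureCounts, STAR, FastQC, DESeq2 and bcl2fastq (version 2.20), with GRCm38 as the genome. Further settings: not given in the sources used here. Files of set 1 list 55421 genes and those of set 2 list 17490. GENCODE M21 gave symbols, positions and lengths for 55154 and 17464 of these.

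Members and gene lists were chosen with earlier results of these data known, so no test is given over a list. Each set was fitted alone on all its genes with edgeR 4.0.16 (R 4.3.3) by glmQLFTest with TMM factors, filterByExpr, Benjamini-Hochberg adjustment and a threshold of 0.05. A model of all 4 groups over genes listed for both sets tested the difference between the hairpin effects. The SE of a log2 fold change is its size divided by the square root of the F statistic, and CPM are counts scaled to TMM-adjusted library totals. Total counts of 9272134 to 26284079 per library set the precision of low genes.

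Alternatives were DESeq2 1.42.0 (size factors, Wald test), total counts, no filter, genes listed for both sets, the replicate block, the model of all 4 groups, leaving out each library, and a fit of set 2 with neither replicate 4 library. Scalings, DESeq2 and the model of 4 groups without hairpin 1 replicate 1, and the block with other scalings or without replicate 4, were added after the data were seen. The edgeR fits were also tested on simulated data with planted log2 changes of 1 or 0.5, in 100 genes each. In set 2, 99 and 55 of these were called without the block, and 96 and 48 with it. Smaller changes were not planted, and all members tested in set 2 had smaller ones (-0.30 to 0.33). In set 1, 0 were called, with or without the block. Counts of 0 in set 1 therefore do not show a lack of change.

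To check whether replicate numbers pair libraries, deviations from group means were correlated between same-numbered libraries. Set 2 gave 0.249, 0.154, 0.247 and 0.598, each above the limit of 0.1, and its numbers were treated as pairs, from the data and not from the labels. Unlike numbers among replicates 1 to 3 gave 0.108 to 0.216, and hairpin 2 replicate 2 gave more with control 2 replicates 1 (0.195) and 3 (0.166) than with its own number, so replicate 4 alone stands clearly apart.

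Named genes were Kmt5c, members past the threshold in a set (up to 12), the highest and lowest member of each complex with a mean of at least 5 CPM, the catalytic core of complex I (some of it not reported here), complex IV isoform families, up to 6 members for the difference between hairpins, all regulators, and up to 4 genes of each other list. Other genes named in the text were chosen after their values were seen. Near-identical processed pseudogenes were found with BLAST+ 2.17.0 among 13132, and Python 3.11.15 drew the figures.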

Additional observations from a re-analysis of the deposited data

Results flagged for a closer look

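In set 2, the highest or lowest library was set against the other 3 of its group for 90 groups of values, and in 8 of them 1 library stood far from the rest. Chance flags about 1 in 20 groups. Hairpin 2 replicate 4 was highest for Ndufc2, at 164 CPM against 81.6 to 88.8 CPM in the other hairpin 2 libraries, and for Atp5s, at 27.5 CPM against 19.9 to 21.2 CPM. It was lowest for Ndufs8, at 72.5 CPM against 81.5 to 83.2 CPM. Hairpin 2 replicate 1 was highest for Cox8a, at 294 CPM against 248 to 256 CPM. Control 2 replicate 3 was lowest for Cox8a (247 CPM against 274 to 278 CPM), for Cox6a1 (234 CPM against 249.8 to 253 CPM) and for Cox5a (111.5 CPM against 122 to 124 CPM). Control 2 replicate 4 was lowest for Atp5a1, at 1190.3 CPM against 1323 to 1349 CPM.

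The effects of the 2 hairpins differed for 15 members and for 7 mRNAs made from mitochondrial DNA when hairpin 1 replicate 1 was left out, by the edgeR test of the difference itself. All 22 had the lower log2 fold change with hairpin 2, where 3.98% of all genes tested were called in that direction. The test takes 1 spread from both sets, and set and hairpin cannot be told apart. With its own spread, set 1 without that library gave 0 members called by edgeR. With hairpin 1 replicate 1 included, 0 members and 0 of these mRNAs differed between the hairpin effects (3 and 6 at an unadjusted p under 0.05).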

How the results depend on the processing

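In set 1, 0 members were called under every alternative that kept hairpin 1 replicate 1, and under leaving out each library in turn. Without that library DESeq2 called 2 higher, where 1.19% of its genes were. The edgeR model of all 4 groups called 24 higher, where 6.55% of all genes were. Set 1 alone by edgeR with TMM factors, DESeq2 size factors or total counts called 0. The median log2 fold change of members in set 1 ran from -0.20 to 0.30 over the fits that leave out 1 library, with the lowest without hairpin 1 replicate 3 and the highest without hairpin 1 replicate 1. In set 2 the 3 calls became 11 with the replicate block (also with total counts or DESeq2 size factors in it), 7 without both replicate 4 libraries, 13 with the block and without them, and 0 in the model of all 4 groups. Calls over all genes grew too. From 4.01% lower and 2.04% higher they became 10.1% and 10.2%, 9.02% and 7.93%, and 12.4% and 12.6% in the first 3 of these fits. Leaving out 1 library gave 0 to 3 members called. The median of members in set 2 stayed between -0.07 and -0.03. For the difference between the hairpin effects, leaving out 1 library gave 0 to 15 members. The 15 came without hairpin 1 replicate 1, and 1 came when control 1 replicate 2 was dropped, with 0 for each other library. For the changes with the block, the cause was not tested.

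In set 1 the same replicate numbers correlated at 0.231, -0.0169 and 0.269. Replicate 2 lay below the limit of 0.1, so these numbers were not treated as pairs, although replicates 1 and 3 passed it. Whether they are pairs was not settled. The block left 0 members called and moved the median to -0.05. Hairpin 1 replicates 1 and 3 correlated best with the control 1 library of their own number, and replicate 2 with control 1 replicate 3 (0.169). No result reversed its direction with a call. The summed CPM of each complex kept within the spread between replicates under the other scalings. Depth limits the members under 5 CPM, such as Cox7a1, and the set 2 values of Ndufb4, Atp5l and Atp5g2.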
